A study of Homo sapiens with 9 samples.

Results

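The 10 mRNAs described here encode the core of the human microRNA machinery: AGO1, AGO2, AGO3, AGO4, TNRC6A, TNRC6B, TNRC6C, DICER1, DROSHA and DGCR8. They were chosen by name, and every binding peak that overlapped 1 of these genes on its own strand was taken from each library. The series held merged peaks in 21986 genes. The proteins bound to these mRNAs were mapped by ABC, a form of eCLIP in which each antibody carries its own DNA barcode, so that RNA-binding proteins (RBPs) pulled down together in 1 tube are told apart by sequencing. Pools of 10 antibodies (10plex) against DDX3, EIF3G, FAM120A, IGF2BP2, LIN28B, PRPF8, PUM2, RBFOX2, SF3B4 and ZC3H11A were applied to K562 cells, an erythroid-like leukaemia line (3 pools), and to HEK293T cells, a line from embryonic kidney that carries the SV40 large T antigen (2 pools). Single-antibody libraries (singleplex) covered RBFOX2 in HEK293T cells (2 replicates) and the histone mRNA binder SLBP in K562 cells (2 replicates). The cells were crosslinked with ultraviolet light, no group received a drug or carried a transgene named in the labels, and nothing in the labels gives separate cultures, so the spread between pools may be technical.

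MicroRNAs are cut from hairpins in longer transcripts. DROSHA, a ribonuclease, and DGCR8, its double-stranded RNA binding partner, form the Microprocessor, which releases the hairpin in the nucleus, and DICER1 trims the hairpin to the mature duplex in the cytoplasm. Argonaute proteins (AGO1 to AGO4) hold the mature strand and are guided by it to target mRNAs, and the TNRC6 proteins bind Argonaute and bring in the deadenylases that silence the target. The DGCR8 mRNA is itself a known Microprocessor substrate, since its second exon holds the hairpins annotated as MIR3618 and MIR1306. Among the RBPs, PRPF8 and SF3B4 belong to the spliceosome and are known to act at 5′ and 3′ splice sites, RBFOX2 is a splicing factor that binds GCATG, PUM2 is a repressor that binds TGTANATA, LIN28B blocks processing of let-7, IGF2BP2 binds and stabilises mRNAs, and DDX3 and EIF3G act in translation initiation.

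The genes lie on 7 chromosomes of GRCh38 (GENCODE release 44). AGO4 (chr1:35808016-35857890), AGO1 (chr1:35869808-35930532) and AGO3 (chr1:35930718-36072500) sit next to each other on the plus strand, AGO2 (chr8:140520156-140635633) is on the minus strand, and TNRC6A (chr16:24610209-24827632), TNRC6B (chr22:40044817-40335808) and TNRC6C (chr17:77958703-78108822) are on the plus strand. DICER1 (chr14:95086228-95158010) and DROSHA (chr5:31400494-31532196) are on the minus strand and DGCR8 (chr22:20080221-20111877) is on the plus strand. By the MANE Select transcript, 4 mRNAs have a 3′ UTR of at least 5000 nt, namely AGO3 (16755 nt), TNRC6B (12567 nt), AGO2 (11888 nt) and AGO1 (10925 nt). The others are shorter, at 4285 nt for AGO4, 4270 nt for DICER1, 3977 nt for TNRC6C, 2411 nt for TNRC6A, 1764 nt for DGCR8 and 938 nt for DROSHA.

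The libraries differed in depth far more between RBPs than between pools. Reads in merged peaks ran from 10186 to 1611478 over the 30 K562 10plex libraries and from 12874 to 2988299 over the 20 HEK293T ones, with PUM2 the shallowest in all 5 pools. Titles put 2 10plex samples in HEK293T while another field of their labels names K562. The summed signal of 9 erythroid markers was 2763 to 3197 RPM (reads scaled to the total of the library) in the K562 pools and 0.677 to 5.06 RPM in the pools titled HEK293T, so those pools were taken as titled. The 6 HEK293T markers separated the lines less, at 431 and 563 RPM in the pools titled HEK293T and 285 to 359 RPM in the K562 pools. Almost all of the K562 sum was MAP1B, at 267 to 352 RPM, above its 186 and 204 RPM in the HEK293T pools. NEFL was at 0 in the K562 pools and at 126 and 116 RPM in the HEK293T pools, while SOX11 was at 0 in both.

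The sites that recur below are shown as RNA-strand DNA sequence of at most 30 bases from GRCh38. The first set gives 6 of the 7 RBFOX2 sites that were enriched in all pools of a line and hold GCATG, which is in capitals, followed by the strongest K562 site of RBFOX2 in DGCR8, which does not hold it. The order and choice were made after the peak values were known.
DGCR8 exon 2, K562 and HEK293T (chr22:20086428-20086457): cagtggggacgtGCATGcttgtccctttgg
DGCR8 intron 1, K562 and HEK293T (chr22:20081420-20081449): aaggcagggtttGCATGcggtgtttggtca
DGCR8 intron 1, HEK293T (chr22:20080930-20080959): atttgcctttttGCATGcttGCATGtacct
DGCR8 intron 1, HEK293T (chr22:20084661-20084690): aggctcctgcctGCATGctggaatttgggt
AGO1 intron 1, K562 (chr1:35883998-35884027): ggaggctccagaGCATGcgcggaggtggca
TNRC6C intron 5, HEK293T (chr17:78052250-78052279): agtagagagggaGCATGcattagcccatgt
DGCR8 intron 1, K562, no GCATG (chr22:20083448-20083477): gggctgggcaggtttcctgctttcctaagg

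The second set gives the intron boundaries at strong PRPF8 and SF3B4 sites, with exon bases in capitals and intron bases in lower case, so that the position of these spliceosome proteins can be read against the splice site.
AGO4 exon 2 to intron 2, PRPF8 in K562 (chr1:35817038-35817067, plus strand): GAGTCAACAGgtaaggattagaaacagtgg
TNRC6A exon 1 to intron 1, PRPF8 in K562 (chr16:24729837-24729866, plus strand): CACACATGAGgtgagcggaacaagggcctc
DROSHA intron 4 to exon 5, SF3B4 in K562 (chr5:31526903-31526932, minus strand): ttttcttttctgccatgaagTCACAGAATG

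The third set gives the middle of named sites outside introns, other than that of AGO2: FAM120A in the 3′ UTRs of AGO1, AGO3, DICER1 and TNRC6B, ZC3H11A in the 3′ UTR of DGCR8, LIN28B in the 3′ UTR of TNRC6B and PUM2 in the coding sequence of DICER1.
AGO1 FAM120A, K562 (chr1:35920207-35920236, plus strand): cccccagctgccaccccccaccttaccctt
AGO3 FAM120A, HEK293T (chr1:36059436-36059465, plus strand): cacagtgacccttctgctcctgcccttgct
DICER1 FAM120A, HEK293T (chr14:95088529-95088558, minus strand): tgtaagatatgaccagttaaaacaaagcaa
TNRC6B FAM120A, HEK293T (chr22:40327870-40327884, plus strand): ttaaaacacttgatt
DGCR8 ZC3H11A, K562 (chr22:20111309-20111327, plus strand): agcgttctgccgtgtctgt
TNRC6B LIN28B, HEK293T (chr22:40327639-40327668, plus strand): gtcatggaagagaagagctctttccgtggt
DICER1 PUM2, HEK293T (chr14:95091346-95091370, minus strand): aatagcttaggagatctgaggagga

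The last set gives the mature microRNAs of the MIR1306 hairpin, which lies inside the coding sequence of DGCR8 exon 2 and under an RBFOX2 peak, from RefSeq (GRCh38.p14) with the seed, bases 2 to 8, in capitals.
hsa-miR-1306-5p (chr22:20086072-20086093): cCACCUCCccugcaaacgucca
hsa-miR-1306-3p (chr22:20086112-20086129): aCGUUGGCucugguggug

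A peak was called enriched when its P was below 0.001 and its fold above 8 over the complement control (CC), the pooled reads of the other 9 barcodes of the same tube. All 10 mRNAs had enriched peaks in both lines. In K562 cells 397 of 1572 tested peaks on these mRNAs were enriched (25.3%), against 20.5% of peaks over all genes, and in HEK293T cells 353 of 2293 were enriched (15.4%), against 13.7% over all genes. The counts per pool were 103, 171 and 123 in K562 cells (132 ± 34.9, SD, n = 3) and 193 and 160 in HEK293T cells (177 ± 23.3, SD, n = 2). These shares lie close to those of all genes, and what set the mRNAs apart from each other was which RBP held the peaks.

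**Figure D1:**
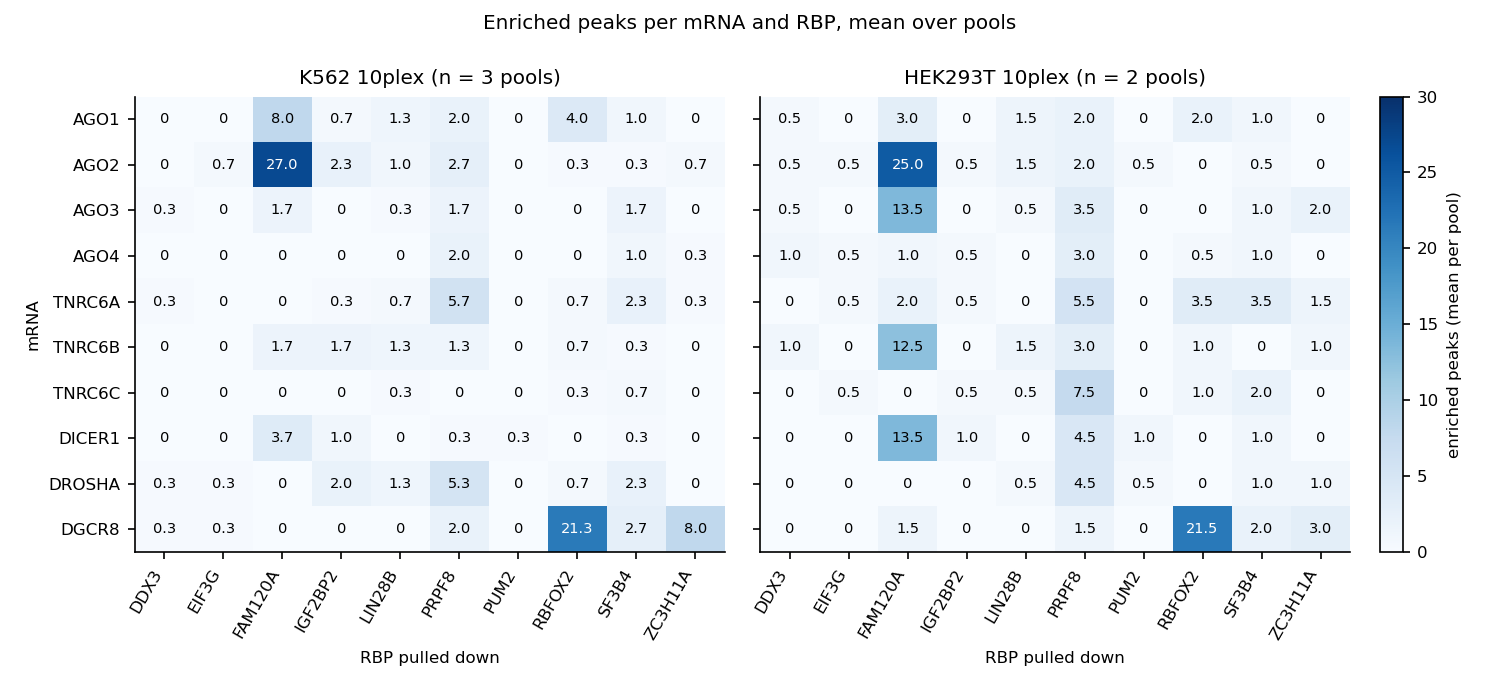
Mean number of enriched peaks per pool for each mRNA (rows) and RBP (columns), in K562 (left, 3 pools) and HEK293T (right, 2 pools), with colour from 0 to 30 peaks. FAM120A on AGO2 (27.0 and 25.0 peaks) and RBFOX2 on DGCR8 (21.3 and 21.5 peaks) are the darkest cells in both lines.

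A pair of combinations stood above the others in both lines. FAM120A had 25, 33 and 23 enriched peaks on AGO2 in the K562 pools and 28 and 22 in the HEK293T pools. RBFOX2 had 15, 25 and 24 on DGCR8 in K562 cells and 24 and 19 in HEK293T cells. The ranges of these counts overlapped between the lines for each combination. FAM120A signal over AGO2 did not overlap, at 1243, 1267 and 1248 RPM in K562 cells and 826 and 809 RPM in HEK293T cells. Its relative signal, explained below, differed by −1.26, HEK293T minus K562 (adjusted p = 0.0612, limma), and a difference between the lines was not shown. The next highest means were 8 in K562 cells, for FAM120A on AGO1 and ZC3H11A on DGCR8, and 13.5 in HEK293T cells, for FAM120A on AGO3 and DICER1.

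FAM120A, an RNA-binding protein, bound the 3′ UTRs. Of its 126 enriched peaks on the 10 mRNAs in K562 cells, 125 lay in a 3′ UTR, as did 141 of 144 in HEK293T cells. The enriched part of its tested peaks was 28.4% in K562 cells against 18.7% over all genes, and 32.9% against 19.5% in HEK293T cells. In K562 cells these peaks fell on 5 mRNAs, AGO1, AGO2, AGO3, TNRC6B and DICER1, and in HEK293T cells on 8, adding AGO4, TNRC6A and intron 1 of DGCR8. No FAM120A peak was enriched on TNRC6C or DROSHA in any pool.

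AGO2, the Argonaute able to cut its target, carried the densest FAM120A signal of the long 3′ UTRs. There were 2.27 ± 0.445 enriched peaks per kb in K562 cells (SD, n = 3) and 2.1 ± 0.357 in HEK293T cells (SD, n = 2), which together covered 11.8% and 11.6% of its 3′ UTR. The peaks fell into 2 stretches. From 1500 to 4500 nt after the stop codon there were 13, 16 and 11 peaks in the K562 pools and 11 and 8 in the HEK293T pools, and from 8000 nt to the end there were 10, 15 and 12 and then 16 and 13. The stretch between them held 1 of 81 peaks in K562 cells and 0 of 50 in HEK293T cells. These limits were set after the positions were seen. Of 15 sites enriched in all K562 pools, 13 overlapped a site enriched in both HEK293T pools. Some of these sites touch each other or share a peak of another pool, so neither they nor the peaks per kb count separate sites. The strongest site in HEK293T cells (chr8:140523285-140523345, 8729 nt after the stop codon) had 90 and 156 FAM120A reads against 2 and 7 reads of the CC, a log2 fold of 6.58 ± 0.69.

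The other Argonaute mRNAs differed in where enriched FAM120A peaks lay and in their number by line. AGO1 had 9, 10 and 5 enriched FAM120A peaks in its 3′ UTR in K562 cells and 1 and 5 in HEK293T cells, and 18 of 24 in K562 cells lay in the first 2000 nt of the 3′ UTR. Its strongest site (chr1:35920192-35920250) had 37, 65 and 27 reads against 6, 6 and 7 of the CC in the K562 pools, a log2 fold of 3.86 ± 0.35, and was enriched in both HEK293T pools too. AGO3, with the longest 3′ UTR, had 0, 4 and 0 such peaks in K562 cells and 6 and 21 in HEK293T cells, with the HEK293T pools well apart. Its site at chr1:36059424-36059477 had 15 and 26 reads with no CC read (log2 fold 5.90 ± 0.59, with the CC set to 1 read). AGO4 had no enriched FAM120A peak in its 3′ UTR in K562 cells and 1 in each HEK293T pool. FAM120A signal over the whole AGO3 gene was 140, 200 and 118 RPM in K562 cells and 145 and 198 RPM in HEK293T cells. For AGO4 it was 40.8, 55.2 and 27.6 RPM and then 25.8 and 32.7 RPM. The relative signal, explained below, differed by −1.05 for AGO1, 0.30 for AGO3 and −0.83 for AGO4, HEK293T minus K562 (adjusted p = 0.0889, 0.658 and 0.175, limma). A difference between the lines was not shown for any of them.

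DICER1 had the highest density of FAM120A peaks in HEK293T cells although its 3′ UTR is under 5000 nt. Its 3′ UTR held 4, 5 and 2 enriched peaks in K562 cells (0.859 ± 0.358 per kb) and 11 and 16 in HEK293T cells (3.16 ± 0.828 per kb). Over all genes FAM120A had on average 9367 enriched peaks per K562 pool and 17697 per HEK293T pool, and its libraries held 651651 to 1611478 reads in K562 cells and 1665495 and 2353596 in HEK293T cells, so depth moved with the line and its part in the higher counts was not tested. The strongest site (chr14:95088517-95088570) had 47 and 88 reads in the HEK293T pools against 0 and 7 of the CC. On the RPM scale FAM120A signal over DICER1 was 80.2, 107 and 110 RPM in K562 cells and 330 and 350 RPM in HEK293T cells. The mRNAs themselves were not measured, so more DICER1 mRNA and more binding per mRNA cannot be told apart from these levels.

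TNRC6B, a scaffold of the silencing complex, had 1, 1 and 3 enriched FAM120A peaks in its long 3′ UTR in K562 cells and 11 and 14 in HEK293T cells. Its signal over the whole gene was 182, 187 and 127 RPM in K562 cells and 375 and 323 RPM in HEK293T cells. Its relative signal, explained below, differed by −0.25 on the log2 scale, HEK293T minus K562 (adjusted p = 0.683, limma) and a difference between the lines was not shown. TNRC6A had no enriched FAM120A peak in K562 cells and 1 and 3 in HEK293T cells.

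**Figure D2:**
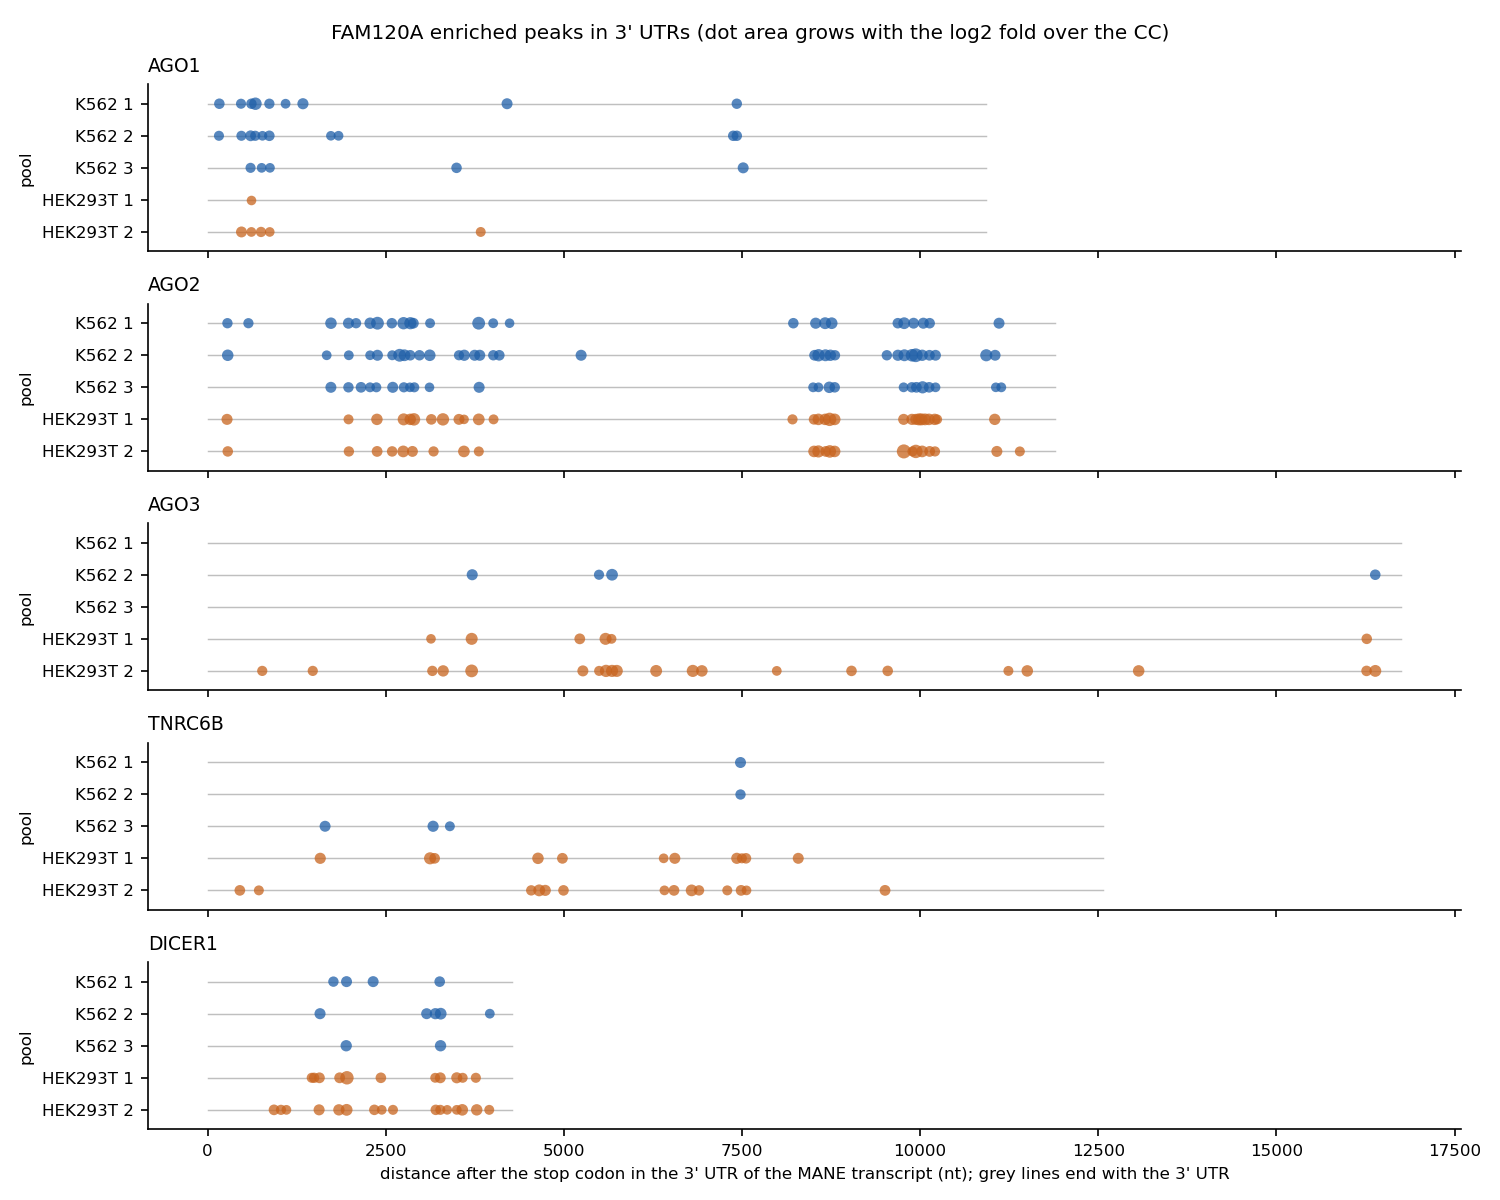
Positions of enriched FAM120A peaks in the 3′ UTRs of AGO1, AGO2, AGO3, TNRC6B and DICER1, as nt after the stop codon (x axis) in each pool (rows, K562 in blue, HEK293T in orange), with dot area growing with the log2 fold over the CC. The AGO2 peaks fall mostly in the same 2 stretches in all 5 pools and leave the middle of the 3′ UTR almost empty, while AGO3 and TNRC6B carry most of their peaks in the HEK293T pools.

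The 4 long 3′ UTRs held 37.9%, 32.2% and 30.9% of all enriched peaks on the 10 mRNAs in the K562 pools (33.6% ± 3.71, SD, n = 3) and 27.5% and 40.6% in the HEK293T pools (34% ± 9.31, SD, n = 2). Over all genes, 3′ UTRs of this length held 6.32% ± 0.218 and 9.25% ± 1.30 of enriched peaks. The mRNAs were chosen by name and 4 of 10 have such a 3′ UTR, so the higher share is a description of these genes.

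DGCR8 stood apart from the other mRNAs by its RBFOX2 peaks. RBFOX2 signal over DGCR8 was 1752, 2302 and 2225 RPM in the K562 pools (2093 ± 298 RPM, SD, n = 3) and 1403 and 910 RPM in the HEK293T pools (1157 ± 349 RPM, SD, n = 2). The relative signal of the pair, explained below, did not pass the test of a difference between the lines (−0.86, adjusted p = 0.165, limma). Of all 84 RBFOX2 peaks enriched on the 10 mRNAs in K562 cells 64 were on DGCR8, and 43 of 59 in HEK293T cells. RBFOX2 peaks on the 10 mRNAs were enriched in 33.5% of tests in K562 cells, against 11.3% over all genes, and in 9.75% in HEK293T cells, against 5.97%.

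The peaks were bunched at the 5′ end of the gene. Intron 1 held 8, 15 and 16 of the enriched RBFOX2 peaks in the K562 pools and 19 and 14 in the HEK293T pools. Exon 2 held 7, 9 and 6 and then 5 and 5. Beyond exon 2 there were 3 enriched peaks in K562 cells and 0 in HEK293T cells, although most of the gene lies there. Of 10 RBFOX2 sites enriched in all K562 pools 8 were found in both HEK293T pools, and 6 of these 8 lie in exon 2, where some touch each other and are not separate sites. The exon 2 site with GCATG, chosen after its values were seen (chr22:20086416-20086467 in K562 cells), had 78, 172 and 104 reads against 22, 29 and 29 of the CC, a log2 fold of 4.43 ± 0.42. The same place in HEK293T cells had 108 and 162 reads against 27 and 47 (3.40 ± 0.14).

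GCATG was searched on the strand of the gene within each enriched RBFOX2 peak. It was found in 7 of 64 peaks on DGCR8 in K562 cells and 10 of 43 in HEK293T cells. Over all genes 38.4% ± 7.79 (SD, n = 3) and 46.4% ± 0.594 (SD, n = 2) of enriched RBFOX2 peaks held it, and the 2 shares were not tested against each other. Enriched peaks of the other 9 RBPs on the 10 mRNAs held it in 6 of 313 cases in K562 cells and 6 of 294 in HEK293T cells.

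The RBFOX2 signal ran across the MIR1306 hairpin (chr22:20086058-20086142). A merged RBFOX2 peak covered it in all 5 pools, with 37, 80 and 45 reads in K562 cells and 114 and 144 in HEK293T cells. Its log2 fold over the CC was 2.63, 3.46 and 3.11 in the K562 pools, past the limit of enrichment in replicates 2 and 3, and 2.48 and 2.24 in the HEK293T pools, under the limit in both. No other RBP had an enriched peak there. MIR3618, in the same exon, had only 1 merged peak in all 10plex libraries, of IGF2BP2 with 6 reads, and MIR3173, in an intron of DICER1, had none. Peaks give called signal only, so a hairpin without a peak is not shown to be unbound.

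ZC3H11A, a zinc-finger protein linked to mRNA export, bound the other end of DGCR8. It had 7, 10 and 7 enriched peaks in K562 cells, 20 of 24 of them in the 3′ UTR, and 3 and 3 in HEK293T cells, all in the 3′ UTR. Over the 10 mRNAs, ZC3H11A peaks were enriched in 58.3% of tests in K562 cells against 22.6% over all genes, and in 18.9% against 12.3% in HEK293T cells. The signal over DGCR8 was 1153, 1995 and 1343 RPM in K562 cells and 1192 and 1065 RPM in HEK293T cells, and the ranges overlapped. The site shown above (chr22:20111309-20111327) had 4, 15 and 6 reads against 0, 14 and 19 of the much deeper CC, a log2 fold of 4.76 ± 1.53. These are few reads, and the spread over pools is wide. The DGCR8 3′ UTR overlaps a noncoding gene on the opposite strand, and the peaks counted here are those on the strand of DGCR8.

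**Figure D3:**
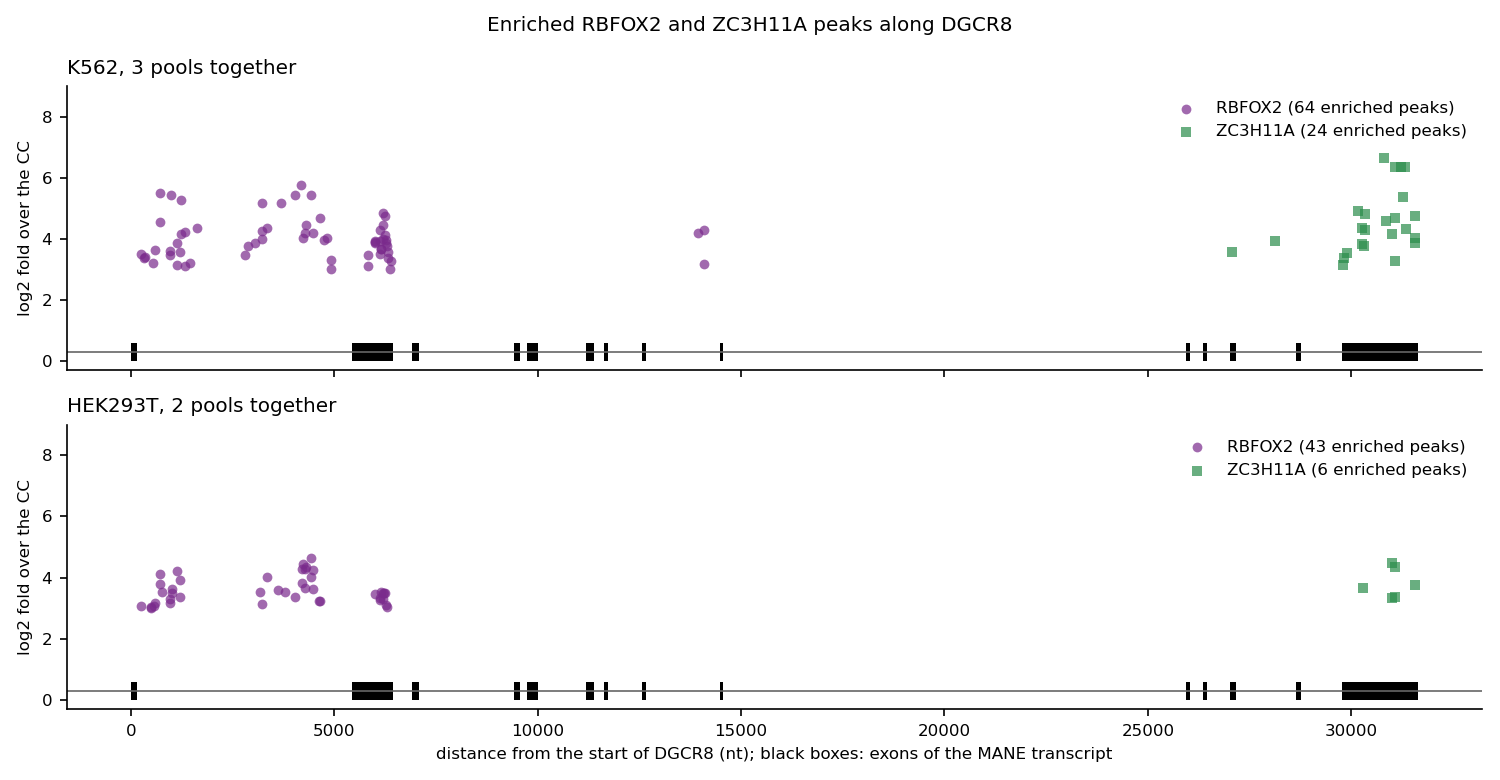
Enriched peaks of RBFOX2 (purple circles) and ZC3H11A (green squares) along DGCR8, as distance from the start of the gene in nt (x axis) and log2 fold over the CC (y axis), with the K562 pools above and the HEK293T pools below, and exons as black boxes. All but 3 RBFOX2 peaks sit in intron 1 and exon 2, and 20 of 24 ZC3H11A peaks in K562 cells and 6 of 6 in HEK293T cells sit in the 3′ UTR.

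DROSHA, the nuclease of the Microprocessor, had on average more enriched peaks of PRPF8 than of any other RBP, with 1, 11 and 4 enriched peaks in the K562 pools and 6 and 3 in the HEK293T pools. Of the 3 K562 pools, replicate 2 held the most, and the lead in K562 cells rested on it. SF3B4 had 2, 4 and 1 in the K562 pools, more than PRPF8 in replicate 1, and IGF2BP2 equalled PRPF8 in replicates 1 and 3. IGF2BP2 had 1, 1 and 4 enriched peaks on DROSHA in K562 cells, all in the coding sequence, and none in HEK293T cells. Its signal over DROSHA was 72.6, 81.4 and 264 RPM in K562 cells and 150 and 165 RPM in HEK293T cells, and the ranges overlapped. The relative signal of this pair, explained below, differed by −0.27, HEK293T minus K562 (adjusted p = 0.788, limma), and a difference between the lines was not shown.

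PRPF8 and SF3B4 were the most widely spread RBPs. PRPF8, the core protein of the spliceosome, had 69 enriched peaks on 9 of the 10 mRNAs in K562 cells (16, 35 and 18 per pool) and 74 on all 10 in HEK293T cells (52 and 22 per pool). It was enriched in 18.4% of tested peaks on these mRNAs in K562 cells against 22.5% over all genes, and in 17.3% against 17.5% in HEK293T cells, so its share was near or below that of all genes. Of these, 64 and 66 lay within 50 nt of an annotated 5′ splice site (92.8% and 89.2%). SF3B4, which sits at the branch site, had 38 enriched peaks in K562 cells and 26 in HEK293T cells, and all of them lay within 50 nt of a 3′ splice site. Its enriched share was 30.9% on these mRNAs and 30.9% over all genes in K562 cells, and 18.8% and 24.4% in HEK293T cells. For the other 8 RBPs in sum, 11 of 290 enriched peaks in K562 cells and 10 of 253 in HEK293T cells lay that close to a 5′ splice site, and 16 and 14 that close to a 3′ splice site.

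The boundaries printed above lie at strong sites of both proteins. At the TNRC6A intron 1 boundary PRPF8 had 53, 39 and 58 reads in K562 cells against 19, 13 and 17 of the CC (log2 fold 4.07 ± 0.37), and the site recurred in both HEK293T pools. At AGO4 exon 2 it had 8, 9 and 9 reads in K562 cells against 4, 4 and 2 (3.91 ± 0.44). SF3B4 had 3, 5 and 4 reads just upstream of DROSHA exon 5 in K562 cells against 1, 2 and 1 (5.16 ± 0.77), at a pyrimidine-rich stretch. TNRC6C, which had 1, 1 and 2 enriched peaks of any RBP in K562 cells, had 12 and 12 in HEK293T cells, of which 9 and 6 were PRPF8. PRPF8 reads over TNRC6C were few in K562 cells, at 17, 3 and 8, against 112 and 144 in HEK293T cells. The relative signal of PRPF8 on TNRC6C, explained below, differed by 0.61, HEK293T minus K562 (adjusted p = 0.455, limma), and a difference between the lines was not shown.

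The other RBPs had fewer enriched peaks. In K562 cells the enriched share of tested peaks was 32.8% for LIN28B against 37.6% over all genes, 11.4% against 12.1% for IGF2BP2 and 9.09% against 21.3% for DDX3. In HEK293T cells these shares were 15.8% against 27.6%, 1.74% against 5.17% and 5.74% against 13.2%. LIN28B had 7, 7 and 5 in K562 cells and 6 and 6 in HEK293T cells, mostly in 3′ UTRs and coding sequence, and its strongest site in TNRC6B (chr22:40327631-40327676) had 22 and 16 reads in the HEK293T pools against 14 and 13 of the CC (log2 fold 5.11). IGF2BP2 had 5, 9 and 10 in K562 cells and 5 and 1 in HEK293T cells, the 2 lines overlapping at 5. DDX3 had 0, 4 and 0 and then 5 and 2, and EIF3G had 2, 1 and 1 and then 2 and 2. The enriched share of EIF3G was 22.2% against 32.3% over all genes in K562 cells and 10% against 21.1% in HEK293T cells. No site of DDX3, EIF3G or IGF2BP2 was enriched in all pools of a line.

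PUM2 had 1 enriched peak in K562 cells and 4 in HEK293T cells, from the shallowest libraries. These were 1 of 2 tested peaks in K562 cells, against 31.2% over all genes, and 4 of 12 in HEK293T cells, against 23.4%. The site in exon 25 of DICER1 had 15 and 3 PUM2 reads in the HEK293T pools, against 13 and 23 of the CC, and 3 reads in K562 replicate 3. TGTANATA was in none of these 5 peaks, while 13.5% of enriched PUM2 peaks over all genes held it in K562 cells and 8.10% in HEK293T cells. The enriched PUM2 peaks outside DICER1 were 1 on AGO2 and 1 on DROSHA, both in HEK293T replicate 1, and DGCR8 had 3 merged peaks in each HEK293T pool (11 and 11 reads), none of them enriched.

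Over whole genes, the relative signal compares an RBP with the rest of its own tube: log2(RPM + 10) of the RBP minus log2(RPM + 10) of the other 9 libraries together. It was fitted with limma over 9872 genes and 10 RBPs, and p-values were adjusted by Benjamini-Hochberg over all 98720 gene and RBP pairs. In K562 cells 10 of the 100 pairs of these mRNAs were above 0 at an adjusted p below 0.05, against 11.6% of all pairs. In HEK293T cells 6 of 100 were, against 8.71%. The share of pairs called above 0 was thus near that of all genes. Below 0 at an adjusted p below 0.05 were 51 of the 100 pairs in K562 cells, against 39.2% of all pairs. In HEK293T cells 22 of the 100 were, against 26.2%. The median relative signal was −1.26 for the 100 pairs and −0.77 for all pairs in K562 cells, and −0.87 and −0.51 in HEK293T cells.

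The pairs called above 0 ranged from many enriched peaks to few. Among those with few, RBFOX2 on TNRC6C had 0, 0 and 1 in the K562 pools. FAM120A there had 1, 4 and 0 on AGO3, 1, 1 and 3 on TNRC6B and 4, 5 and 2 on DICER1. PRPF8 on AGO4 had 4 and 2 in the HEK293T pools. In K562 cells FAM120A was above the rest of the pool on AGO2 by 2.91 on the log2 scale (SE 0.21, adjusted p = 0.000332, limma), with pools at 3.38, 2.77 and 2.58. FAM120A on DICER1 was at 1.97 (adjusted p = 0.000489), on AGO1 at 1.28 (0.00178), on AGO3 at 1.25 (0.00377) and on TNRC6B at 0.90 (0.00961). RBFOX2 on DGCR8 was at 2.59 (SE 0.21, adjusted p = 0.000436, limma), with pools at 2.28, 2.8 and 2.68. PRPF8 was above the rest on TNRC6A by 2.18 and on DROSHA by 1.80, ZC3H11A on DGCR8 by 1.40 and RBFOX2 on TNRC6C by 0.95 (adjusted p = 0.0371). RBFOX2 on TNRC6C lost its call without K562 replicate 1 or 3 or without either HEK293T pool, and FAM120A on TNRC6B without K562 replicate 1 or 2.

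In HEK293T cells FAM120A was above the rest of the pool on AGO2 by 1.65 (SE 0.26, adjusted p = 0.00271, limma), on AGO3 by 1.54 and on DICER1 by 1.45. RBFOX2 on DGCR8 was at 1.72 (SE 0.25, adjusted p = 0.00329), and PRPF8 was at 1.26 on TNRC6C and 0.87 on AGO4. With either HEK293T pool left out, 2 of these 6 pairs stayed called, RBFOX2 on DGCR8 and FAM120A on DICER1, but the lone pool is then assumed to vary like the K562 pools. Without the pool as block none of the 6 was called in HEK293T cells, with 4 of the 100 pairs at an unadjusted p below 0.05 (limma). That fit had the same median estimate (0.191) as a fit with the block on the mean of the other 9 libraries' log2 values. It thus differed from the main fit in the measure too, and the like fit with the block called 14 pairs. The pairs called in both lines were FAM120A on AGO2, AGO3 and DICER1 and RBFOX2 on DGCR8.

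**Figure D4:**
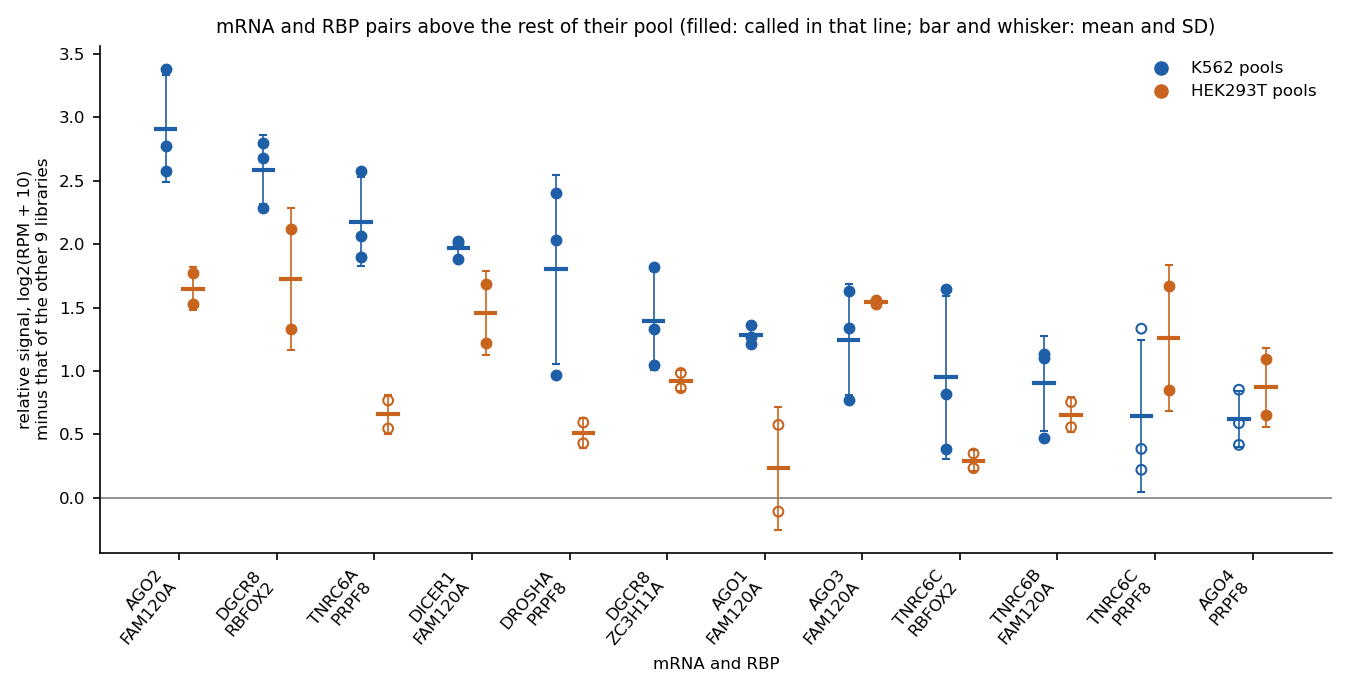
Relative signal in log2 units (y axis) of the 12 mRNA and RBP pairs called above the rest of the pool in K562 (blue) or HEK293T (orange), with a point for each pool, filled where the pair was called in that line, and the mean with its SD. All pools of AGO2 with FAM120A and of DGCR8 with RBFOX2 are above 1, and the HEK293T pools of AGO1 with FAM120A lie on both sides of 0.

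The relative signal of 4 of the 100 pairs differed between the lines, 3 higher in HEK293T cells, against 3.99% of all pairs, and 1 lower, against 4.25%. PRPF8 on TNRC6A was lower in HEK293T cells by 1.52 (SE 0.32, adjusted p = 0.0312, limma), with pools at 2.58, 1.90 and 2.06 in K562 cells and 0.77 and 0.55 in HEK293T cells. DDX3 on AGO2, EIF3G on TNRC6A and ZC3H11A on DROSHA were higher in HEK293T cells, but the means stood at −0.86, −0.51 and 0.57 there, none above the rest of the pool by the test. With any 1 of the 5 pools left out, none of the 4 kept its call, except DDX3 on AGO2 without K562 replicate 3, and the adjusted p then ran from 0.0436 to 0.172. Without K562 replicate 1, limma called 0 pairs over all genes, while 19 of the 100 pairs had an unadjusted p below 0.05. FAM120A on DICER1, which had more peaks in HEK293T cells, had a relative signal lower by 0.52 there (SE 0.32, adjusted p = 0.361), and the difference for RBFOX2 on DGCR8 was −0.86 (SE 0.32, adjusted p = 0.165). A difference between the lines was not shown for either.

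The singleplex RBFOX2 libraries gave the same order of mRNAs at the top without any other antibody in the tube. They have no CC, so both kinds of library were set against the external background, in which a peak often had at most 1 read. By that measure DGCR8 had 58 and 43 enriched peaks in the singleplex libraries and 48 and 43 in the HEK293T 10plex pools. AGO1 followed with 24 and 19 and with 16 and 13, and AGO3 and AGO4 had 0 in all 4 libraries. The ranges of DGCR8 overlapped between the methods, and those of AGO1 did not. Over all genes 10.0% of singleplex peaks and 9.20% of 10plex RBFOX2 peaks in HEK293T cells were enriched by this measure, and on the 10 mRNAs 197 of 1166 singleplex peaks were (16.9%). RBFOX2 signal over DGCR8 was 1845 and 2355 RPM in the singleplex libraries, above both 10plex pools.

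The single-antibody peaks overlapped most of the 10plex sites. Of the 17 DGCR8 sites enriched in both HEK293T 10plex pools, 15 overlapped a peak enriched in both singleplex replicates, and all 10 of the K562 sites did. Some of these sites touch each other or share a peak of another pool, so they are not all separate sites. Intron 1 of DGCR8 held 42 and 31 of the singleplex peaks and exon 2 held 13 and 10. The MIR1306 hairpin lay under enriched singleplex RBFOX2 peaks in both replicates, with up to 434 and 264 reads. MIR3618 lay under 1 enriched peak of 8 reads in replicate 2 (log2 fold 3.32) and under none in replicate 1. In AGO1 the singleplex peaks were in intron 1 (8 and 8), exon 1 (3 and 2) and the last exon (12 and 8), and the K562 site in intron 1 with GCATG was enriched in both replicates.

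**Figure D5:**
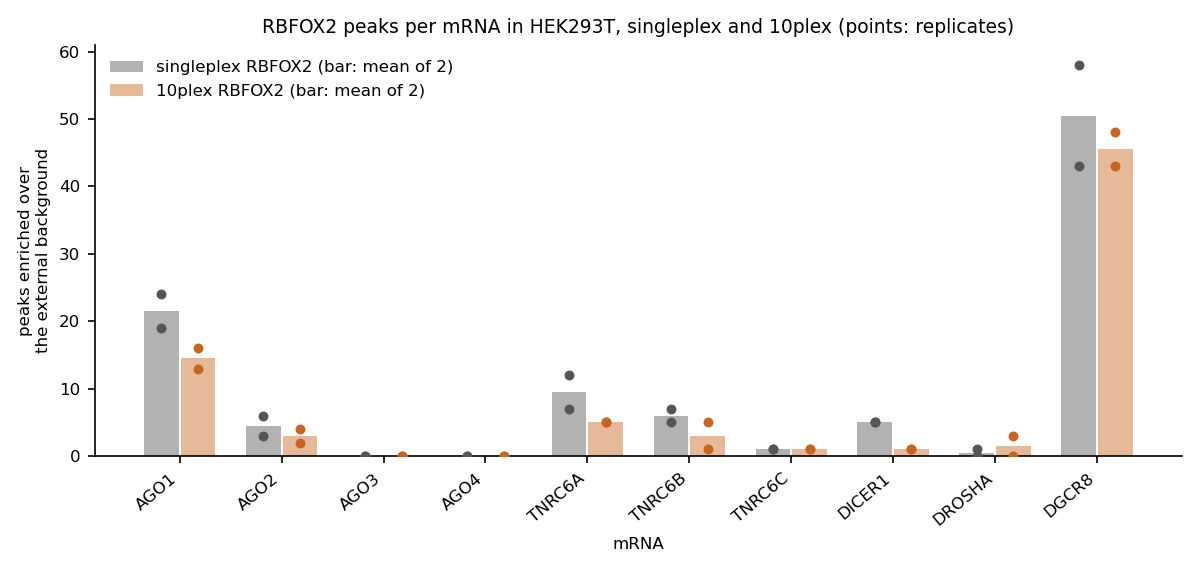
Number of RBFOX2 peaks enriched over the external background on each mRNA in HEK293T cells, for singleplex (grey) and 10plex (orange) libraries, with bars at the mean of 2 replicates and a point for each. DGCR8 has 43 to 58 peaks and AGO1 13 to 24, and the other mRNAs have at most 12.

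SLBP served as a protein that binds histone mRNAs. Its libraries held 12 merged peaks on the 10 mRNAs, each of 3 reads, and 2 touching ones in an intron of DROSHA in replicate 2 were enriched over the external background, against 55.3% of all SLBP peaks. By library, 1678 of 4445 peaks over all genes were enriched in replicate 1 and 1741 of 1743 in replicate 2. Nearly every peak of replicate 2 passed, so the call does not mark DROSHA out.

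Among 20 other genes of the microRNA pathway, which include exporters, Microprocessor helpers, hairpin-tailing enzymes and deadenylase subunits, 27 of 200 gene and RBP pairs were above the rest of the pool in K562 cells (13.5%, against 11.6% of all pairs) and 18 of 200 in HEK293T cells (9%, against 8.71%), by the same limma fit. PRPF8 accounted for 11 of the 27 in K562 cells. Enriched peaks were most numerous in K562 cells on CNOT1, the scaffold of the CCR4-NOT deadenylase (20, 29 and 26 per pool), PABPC1, the poly(A) binding protein (20, 23 and 31, with 52 of 74 from IGF2BP2), and DDX17, a Microprocessor helicase (22, 24 and 23, with 29 of 69 from FAM120A). PABPC1 had 8 and 6 in HEK293T cells.

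For the 3 mRNAs with the most reads, the genes whose relative signal ran most alike over the 50 10plex libraries were listed among 9872 genes. They were FGFR3 (Pearson r = 0.860) and the overlapping genes RTEL1 and RTEL1-TNFRSF6B (0.818) for DGCR8, STRN (0.849), ENSG00000241489 (0.847) and UHMK1 (0.842) for AGO2, and HMBOX1 (0.837), PDCD6IP (0.836) and PPP6R3 (0.830) for AGO1. The 50 points share their tubes and the depth of each RBP, so these values describe likeness only.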

How the data were processed

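The data were 54 ABC libraries, 50 of them 10plex. Per the methods and the submitters' processing notes, the authors trimmed reads with cutadapt 2.8, aligned them to GRCh38 with STAR 2.7.6, removed PCR duplicates by unique molecular identifiers, called peaks with CLIPper, normalised them per sample and merged overlapping peaks. The deposited −log10 P and log2 fold over the external background were used for all libraries, and those over the CC for K562 replicate 3. Reads per peak came from the deposited peak names (K562 replicates 1 and 3, singleplex RBFOX2) or were solved as the whole numbers that give the fold and come nearest to the −log10 P, within 2% of it for 86.9 to 100% of peaks per library. At most 671 peaks per library had no solution and were set to 3 reads. For K562 replicates 1 and 2 and HEK293T, in lists without repeats, CC reads were solved from the deposited chi-squared statistic, the reads and the fitted share of the library in its pool. Among peaks with P below 0.001 the solution was a whole number in 51.6 to 99.4% per library. Of the enriched peaks on the 10 mRNAs, 90 of 397 in K562 cells and 125 of 353 in HEK293T cells rest on a solution that was not whole. Tested on statistics simulated from K562 replicate 3, 100% of enriched peaks were recovered and at most 0.818% of calls were false. The simulated statistics were made from whole reads by the same formula that was solved. This test therefore gives no error rate for calls that rest on a solution that was not whole. The deposited CLIPper p-values and display scores entered no result. A CC without reads was set to 1. The lists hold peaks of at least 3 reads, so a gene without a peak has no upper limit here, and intervals are not given.

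Peaks were joined to GENCODE release 44 (the authors used release 35) with bedtools 2.31.1, by any overlap on the strand. Regions followed the MANE Select transcript in the order coding sequence, 3′ UTR, 5′ UTR, other exon, splice sites (100 nt), proximal (500 nt) and distal intron, and were the same as the authors' for 95.4% of 3516 peaks. RPM used reads of merged peaks, with touching peaks counted once by the highest. limma 3.58.1 (R 4.3.3) with a pseudocount of 10 RPM tested genes with a mean of at least 10 RPM, with the pool as block, as the numbers mark 1 tube. In simulated RBFOX2 values over 9671 genes, 4-fold changes were recovered in 94% (K562) and 77% (HEK293T) and 8-fold changes in 100%. Replicates were distinct, with at most 0.213% of values identical. For each mRNA the RBPs with the highest mean number of enriched peaks are named, and named sites are those enriched for 1 RBP in all replicates of a line with the highest mean log2 fold, per mRNA and per RBP. Other sites, the position limits and the sequences without GCATG were chosen after values were seen. The members and lists were chosen with earlier results of these data known. The alternatives are given in the closing section. One named site and one marker gene are not reported here.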

Additional observations from a re-analysis of the deposited data

Results flagged for a closer look

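In the limma fit the relative signal of 4 mRNA and RBP pairs differed between HEK293T and K562 cells at an adjusted p below 0.05. ZC3H11A on DROSHA was higher in HEK293T cells by 4.17 (SE 0.58, adjusted p = 0.0219), where it had 187 and 340 RPM, while no peak was listed in any K562 pool. EIF3G on TNRC6A was higher by 3.26 (SE 0.41, adjusted p = 0.0207), again with no peak listed in any K562 pool. DDX3 on AGO2 was higher by 2.31 (SE 0.45, adjusted p = 0.0401), with 15 and 16 merged peaks in HEK293T cells and fewer in K562 cells. PRPF8 on TNRC6A was lower in HEK293T cells, at −1.52 (SE 0.32, adjusted p = 0.0312), with 335 to 362 RPM in K562 cells and 237 and 259 RPM in HEK293T cells. A pair with no listed peak has no true level, so its fitted difference follows from the pseudocount and is no fold. The calls depended on single pools, since all 4 were lost without K562 replicate 1, and without either HEK293T pool.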

How the results depend on the processing

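The lists give called peaks only, so a low level and a missing peak look alike, and PUM2 was the shallowest. The alternative that leaves out repeats of K562 replicate 3 was not run, as the genome used here does not mark them. Enriched peaks per pool changed from 132 to 44.7 (K562) and from 177 to 63.0 (HEK293T) with P below 1e-05 and fold above 16, to 318.5 in HEK293T cells with P below 0.001 and any fold above 1, and to 277 and 707 over the external background, which had at most 1 read in 88.7 to 98.7% of K562 peaks and in 6.60 to 24.0% of HEK293T peaks other than RBFOX2. The long 3′ UTR share became 39.5% and 53.2% with the stricter limits and 26.3% and 23.1% over the external background. SLBP peaks per replicate changed from 1 to 0 with the stricter limits and to 0.5 with touching peaks counted once. With the mean of the log2 values of the other 9 libraries in place of their pooled reads, called pairs changed from 10 to 28 in K562 cells and from 6 to 14 in HEK293T cells, and the median over all pairs moved from −0.77 to −0.11 and from −0.51 to 0. A pseudocount of 50 RPM gave 10 pairs that differed between the lines in place of 4. Without the replicate block, which pairs libraries by tube, limma called 5 pairs in K562 cells, 0 in HEK293T cells (4 at an unadjusted p below 0.05) and 0 between the lines (2 at an unadjusted p below 0.05). The medians of the 100 pairs in that fit (−0.0676 and 0.191) were those of the fit on the mean of log2 values. It thus changed the measure as well as the block, and its counterpart with the block is the 28 and 14 called pairs. Over all genes, pairs above and below the rest of the pool were 11455 and 38718 in K562 cells and 8596 and 25832 in HEK293T cells, 19106 and 17597 and then 13866 and 14871 with the mean of log2 values, and 4545 and 1985 and then 1495 and 1389 without the block. Without the low-value filter HEK293T had 11700 and 49604. Pairs higher and lower in HEK293T cells were 3937 and 4195, and 7680 and 16065 without the low-value filter, 2388 and 3831 with the mean of log2 values and 90 and 73 without the block.

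With 1 replicate left out at a time, the results ran from 113 to 147 enriched peaks in K562 cells and 160 to 193 in HEK293T cells, 31.5 to 35% and 27.5 to 40.6% in long 3′ UTRs, 86 to 111 for singleplex RBFOX2 and 0 to 2 for SLBP, 8 to 10 called pairs in K562 cells, 2 to 5 in HEK293T cells and 0 to 4 between the lines. Over all genes, without HEK293T replicate 1 or 2 the pairs above in HEK293T cells were 3705 and 4186, and pairs that were higher and lower between the lines ran from 0 and 0 (without K562 replicate 1) to 1727 and 2111. FAM120A on AGO2, AGO3 and DICER1, RBFOX2 on DGCR8 and PRPF8 on TNRC6A stayed called in K562 cells under all 10 alternatives, and RBFOX2 on TNRC6C under 3 of 10. None of the 20 called results on these mRNAs changed sign under these alternatives. The cause of these changes was not tested.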
